A study of Arabidopsis thaliana with 21 samples.

Results

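A set of 101 Arabidopsis genes had transcripts that were high after 3 d of cold and had lost at least 75% of that increase after 2 h back in the warmth. They were selected on measured values of these arrays. Group means of log2 expression values were taken, and the mean of non-acclimated (NA) plants had to lie at least 1 below that of cold acclimated plants. The difference between 2 h and cold acclimated plants, divided by the difference between NA and cold acclimated plants, had to reach 0.75 (this ratio is 0 at the cold level and 1 at the NA level). All 3 cold acclimated arrays had to lie above all 3 NA arrays and all 3 arrays of 2 h. Of 16722 probe sets (the sets of probes that stand for a transcript) with 1 gene in the platform table, 105 met these demands. Of these, 4 were left out because their symbols start with family names that the selection left out (UGT72B3, UGT78D3, COR47 and COR27). The 101 that remain, each a different gene, are 17.2% of the 586 genes of the same table that were higher by 1 or more in cold acclimated than in NA plants with no overlap of arrays, after the same families were left out.

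The plants were rosettes of Arabidopsis thaliana Columbia-0 (Col-0, the common laboratory accession), with no mutant or transgene in any group. Seedlings first spent 3 weeks under short days (8 h of light) and then a further week under long days (16 h), with temperatures of 20 °C (day) and 18 °C (night) and a light level of 200 µmol per square metre and second or more. Cold acclimated (CA) plants were then held for 3 d at 4 °C in days of 16 h at 90 µmol. Deacclimated plants had the same cold treatment and were returned to the first conditions for 2, 4, 6, 12 or 24 h, while NA plants were never in the cold. The 7 groups had 3 biological replicates each, every one a pool of 10 rosettes, which gave 21 arrays. The transfer raised light as well as temperature. The study's text places the move to warmth in the morning and its sampling in the light period, but no source used here states the clock hour of each group's harvest, so warmth, light and hour of day cannot be told apart. In whole rosettes, fewer cells of a type and less RNA per cell cannot be told apart either.

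In cold acclimation, transcription factors of the CBF family and regulators of other pathways switch on genes for protective proteins, sugars, flavonoids and the handling of RNA in the cold, and freezing tolerance rises over days. In deacclimation this program is taken back while growth resumes. The level of a transcript falls only as fast as existing RNA is degraded once synthesis slows, and degradation itself depends on temperature, so genes with similar cold induction can leave the cold state at very different speeds.

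All 101 genes were matched to the RefSeq annotation, but 74 are known here by locus number alone and are given no role. The other 27 carry a symbol or an annotation, and they cover anthocyanin and other glycosyl transfer (4 genes), transport (2), cell wall (3), other metabolism (4), RNA and ribosome factors (5) and regulators or signalling (9). Array medians ran from 8.11 to 8.43, the highest being that of 2 h replicate 1 (the next was 8.28), and arrays of the same group correlated at 0.984 or more. Of the tissue markers, RCA, the Rubisco activase of leaves, was measured at 12.33 to 12.65 over the group means and the root expansins EXPA7 and EXPA18 at 3.90 to 4.78, and 0 of 8 flower markers were on the platform list. The replicates of the 101 genes were tightest in CA plants, with a median SD of 0.14, and widest at 2 h, with 0.31. For 57 of the genes 2 h replicate 1 was the highest of the 3 arrays of its group. Without that array 146 genes met the selection in place of 101, with 93 in common.

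The increase in the cold that selected these genes ran from 1.00 to 4.00 on the log2 scale (CA minus NA), with a median over the genes of 1.24 and quartiles of 1.1 and 1.78. At 2 h the ratio ran from 0.75 to 2.67 with a median of 0.93, and for 35 genes the mean at 2 h was below that of NA plants. These values chose the genes and are given as a description. Over all 31329 probe sets analysed, 12973 had a mean at 2 h below that of NA plants. AT4G33980 had the largest increase. It is known here by locus number alone, so whether it belongs to a left-out family such as COR was not checked. Its log2 values were 9.45, 9.21 and 9.73 in CA plants (replicates 1, 2 and 3), then 6.93, 6.07 and 4.89 after 2 h, with 5.54, 5.01 and 5.84 in NA plants. The 2 h arrays of this gene spread more widely than those of NA plants, with replicate 1 above every NA array and replicate 3 below every one.

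The gene with the next largest increase, AT1G02460, encodes a protein of the polygalacturonase family, enzymes that hydrolyse pectin of the cell wall. It was measured at 9.52, 9.32 and 9.09 in CA plants and at 6.40, 5.80 and 5.87 after 2 h, while NA plants spread widely at 6.75, 5.74 and 4.07. AT3G55580 had CA values of 11.53, 11.55 and 11.53, 2 h values of 7.01, 6.73 and 6.64, and NA values of 8.45, 7.64 and 8.00. For AT3G55580 all arrays of 2 h thus lay below all NA arrays, while those of AT1G02460 lay among them.

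SWEET13 (AT5G50800), a carrier that lets sugars leave cells, stood at 10.92, 10.62 and 10.24 in CA plants, 9.15, 8.10 and 7.79 after 2 h and 8.13, 8.13 and 7.91 in NA plants. UF3GT (AT5G54060), which adds a xylose to the glucose of anthocyanins, stood at 6.78, 7.03 and 7.28 in CA plants, 4.51, 5.06 and 5.60 after 2 h and 5.14, 4.82 and 4.10 in NA plants. In both genes the 2 h arrays overlapped those of NA plants. Increases in the cold were 3.79 for AT1G02460, 3.51 for AT3G55580, 2.54 for SWEET13 and 2.35 for UF3GT. The other 7 of the 12 largest were those of AT1G04570 (3.58), AT4G30830 (3.38), AT1G70640 (3.19), AT5G62360 (3.14), AT4G25433 (2.97), AT1G11210 (2.87) and AT3G24230 (2.33). Close to the limit of 0.75, AT1G70640, AT5G15300 and AT3G59070 were just inside with ratios of 0.7515, 0.7558 and 0.7576, and AT2G25355, AT5G11240 and AT2G15630 were just outside with 0.7497, 0.7447 and 0.7427.

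The arrays of 4 h and later took no part in the selection, and on them the genes as a group remained low. The median difference from CA plants was -1.25 after 2 h, -1.35 after 4 h, -1.47 after 6 h, -1.64 after 12 h and -1.43 after 24 h, with -1.24 in NA plants. The other 485 cold-induced genes stood at -0.54, -0.65, -0.59, -0.90 and -1.23 at these times and at -1.29 in NA plants, and over all probe sets the medians lay between 0.00 and 0.06. At 24 h the quartiles of both sets overlapped (-1.86 and -1.06 in the fast-falling genes, -1.57 and -0.98 in the others). All these differences share the CA arrays that the selection used, and the gap between the sets at 2 h follows from the selection itself. The differences therefore carry no test.

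**Figure D1:**
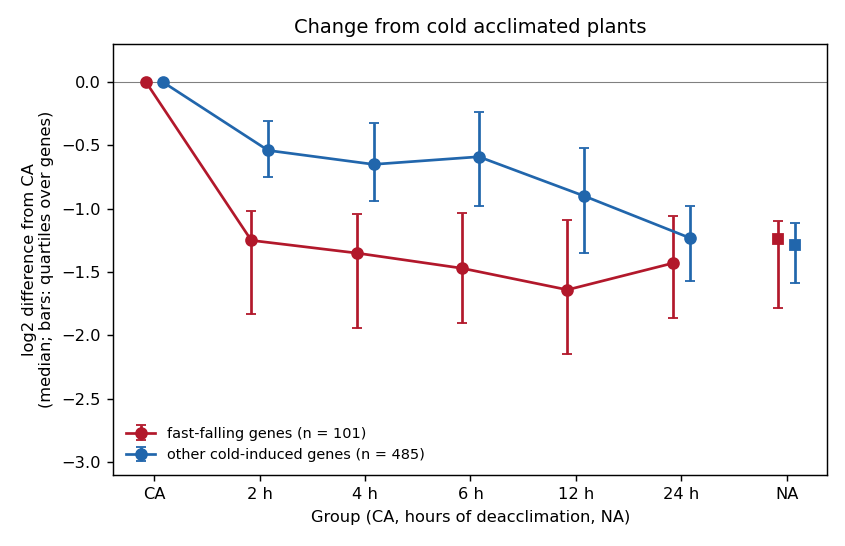
Median log2 difference from cold acclimated (CA) plants in the 101 fast-falling genes (red) and the 485 other cold-induced genes (blue), for CA plants, for 2 to 24 h of deacclimation and for NA plants (squares). Bars span the quartiles over genes, and the red medians lie between -1.25 and -1.64 from 2 h on, while the blue ones go from -0.54 after 2 h to -1.23 after 24 h. The gap between the sets at 2 h follows from the selection.

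Array by array, the levels were set beside those of CA plants. The CA arrays took part in the selection, so these counts and shares are a description with no test. Of the 101 genes, 95 (94.1%) had all 3 arrays of 4 h below all 3 of CA plants. This was so for 20.6% of all probe sets analysed and 67.4% of the other cold-induced genes. At 6 h the number was 93 (92.1%, against 21.8% of all probe sets and 62.1% of the other cold-induced genes) and at 12 h again 93 (against 25.6% and 78.6%). At 24 h it was 99 (98.0%, against 23.6% and 92.8%). The 2 exceptions at 24 h were AT1G48100 and AT3G14395, named after their values were seen. At all 4 times 86 genes had every array below all CA arrays, and 15 did not at some time. For all 4 times together no share was counted over all probe sets or other cold-induced genes, so 86 has no measure beside it.

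The levels were also set beside those of NA plants, whose arrays took part in the selection, so the counts below NA plants are a description with no test. The mean was below that of NA plants in 54 genes after 4 h, 59 after 6 h, 69 after 12 h and 45 after 24 h. Over all 31329 probe sets analysed these numbers were 14518, 14317, 15636 and 15932. At 12 h, 33 genes (32.7%) had all arrays below all NA arrays, where 17% of all probe sets did. At 24 h 17 genes lay wholly below NA plants (5.86% of all probe sets did) and 11 wholly above (again 5.86%), and 73 overlapped them. Among 4, 6, 12 and 24 h the lowest mean fell at 4 h in 19 genes, at 6 h in 21, at 12 h in 33 and at 24 h in 28.

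**Figure D2:**
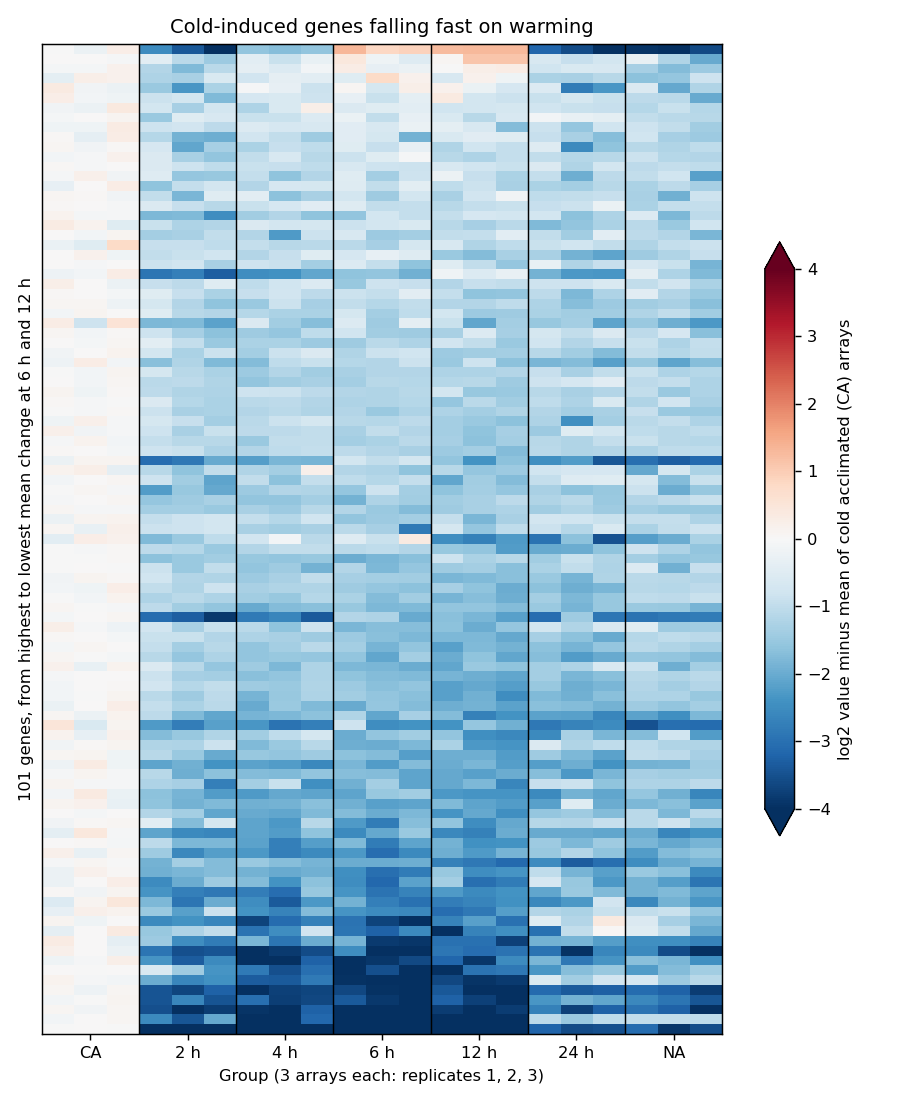
Log2 value minus the mean of the cold acclimated (CA) arrays for the 101 genes (rows, ordered by their mean change at 6 h and 12 h) on the 21 arrays (columns, 3 per group, replicates 1 to 3 from left to right). Colours saturate beyond -4 and 4. Most rows are blue on every array from 2 h on, a few at the top return towards 0 or above it at 6 h and 12 h, and rows at the bottom are darkest at 6 h and 12 h and paler at 24 h.

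Only the arrays of 4, 6, 12 and 24 h took no part in the selection, so tests were limited to differences among them, from limma with Benjamini-Hochberg adjustment over 31329 probe sets. The spread was estimated from all 21 arrays, those of the selection included, so standard errors and p-values are not fully independent of it. With only the compared arrays fitted, 9 of 32 calls were lost. In that fit SWEET13 (24 h minus 12 h) and AT5G15853 (24 h minus 4 h) gained a call. A gene counts as higher or lower at an adjusted p under 0.05 and a log2 difference over 1. Between 12 h and 4 h, 2 of the 101 genes were higher and 4 lower, where 0.533% and 0.661% of all probe sets were (33 genes had an unadjusted p under 0.05). With the replicate number as a block, as same-numbered arrays of these times deviated together, 4 were higher, AT1G11210 and CLE21 in addition, and the same 4 lower. Without 12 h replicate 2, only 2 were lower.

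Between 24 h and 12 h, 9 genes were higher and 5 lower, against 1.59% and 1.02% of all probe sets, and 40 had an unadjusted p under 0.05. Of the 485 other cold-induced genes, 1 was higher and 65 lower. The median difference was 0.20 in the fast-falling genes and -0.33 in the other cold-induced ones. The number of lower genes was 3 without 24 h replicate 2 or 3 or 12 h replicate 2, and 2 without 12 h replicate 3. Between 24 h and 4 h, 8 were higher and 4 lower, against 2.51% and 1.86% of all probe sets, with medians of 0.05 in the fast-falling and -0.68 in the other cold-induced genes (of which 1 was higher and 106 lower). Without 4 h replicate 2 the number higher was 5, and without 24 h replicate 1 the number lower was 7. How the sets differ was not tested, since measured values divided them. In all, 18 of the 101 genes were called in some of the 3 comparisons, 12 of them known by locus alone, and 83 in none.

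**Figure D3:**
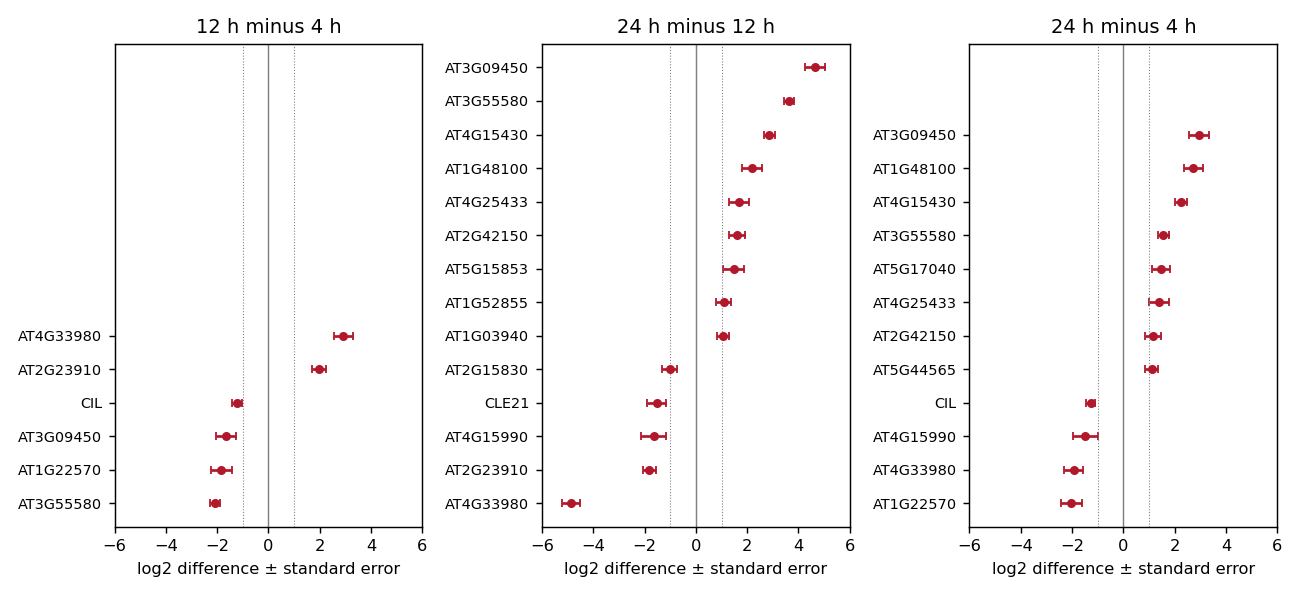
Log2 differences with standard errors from limma for every fast-falling gene called in a comparison of times that the selection did not use (12 h minus 4 h, 24 h minus 12 h and 24 h minus 4 h, n = 3 arrays per group). Dotted lines mark differences of -1 and 1, and the extremes are 4.63 for AT3G09450 and -4.86 for AT4G33980, both between 24 h and 12 h.

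The clearest course among the genes called higher at 24 h was a dip at 6 h and 12 h. AT3G09450 stood at 10.75, 10.87 and 10.93 in CA plants, 8.30, 7.42 and 8.80 after 2 h, 6.72, 5.64 and 7.72 after 4 h, 5.82, 5.86 and 5.16 after 6 h, 4.82, 4.99 and 5.26 after 12 h, 9.80, 9.35 and 9.83 after 24 h, and 9.85, 9.85 and 9.84 in NA plants. Every array of 24 h lay above every array of 2 to 12 h, and none lay above the lowest of NA plants. From limma the 24 h level exceeded that of 12 h by 4.63 (standard error, SE, 0.39 with 3 arrays per group, adjusted p = 5.44e-07) and that of 4 h by 2.96 (adjusted p = 7.36e-05). The difference between 12 h and 4 h, -1.67 (adjusted p = 0.019, limma), lost its call without 12 h replicate 1 or 2 or 4 h replicate 1 or 3, and when the arrays of only those times were fitted.

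AT3G55580 had 6.63, 6.21 and 6.82 after 4 h, 6.42, 5.74 and 5.95 after 6 h, 4.46, 4.65 and 4.32 after 12 h, and 8.35, 7.96 and 8.01 after 24 h. The 12 h arrays were the lowest of all groups without overlap, and those of 24 h lay among NA plants. In limma this gene fell by 2.08 between 4 h and 12 h (SE 0.21, 3 arrays per group, adjusted p = 4.25e-05) and the 24 h level was 3.63 above that of 12 h (adjusted p = 7.57e-09) and 1.55 above that of 4 h (adjusted p = 8.16e-05). All 3 calls held under every alternative that kept its probe set in the fit.

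AT4G15430 was measured at 11.05, 10.85 and 10.80 in CA plants, 8.91, 8.29 and 8.49 after 2 h, 7.56, 7.54 and 8.06 after 4 h, 6.94, 6.90 and 6.56 after 6 h, 7.27, 6.99 and 7.07 after 12 h, 10.29, 9.51 and 10.14 after 24 h, and 10.24, 9.44 and 9.79 in NA plants. Its 24 h arrays were within the range of NA plants or just above it, and all of its 4 h to 12 h arrays lay below NA plants. The 24 h level was 2.87 above that of 12 h (SE 0.23, 3 arrays per group, adjusted p = 2.92e-07, limma) and 2.26 above that of 4 h (adjusted p = 5.51e-06).

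AT1G48100, another member of the polygalacturonase family, stood at 10.36, 10.09 and 10.28 in CA plants, 7.69, 7.85 and 7.63 after 2 h, 6.55, 7.17 and 7.56 after 4 h, 7.30, 6.56 and 6.27 after 6 h, 7.59, 8.07 and 7.28 after 12 h, 9.78, 9.07 and 10.63 after 24 h, and 9.67, 8.91 and 8.41 in NA plants. Its 24 h arrays overlapped those of both CA and NA plants. The level at 24 h exceeded that at 12 h by 2.18 (SE 0.38, 3 arrays per group, adjusted p = 0.00131, limma) and that at 4 h by 2.73 (adjusted p = 0.000115). The course of the polygalacturonase gene AT1G02460 was unlike this, with means of 5.44 after 4 h, 5.81 after 6 h, 6.34 after 12 h and 6.14 after 24 h and no call.

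**Figure D4:**
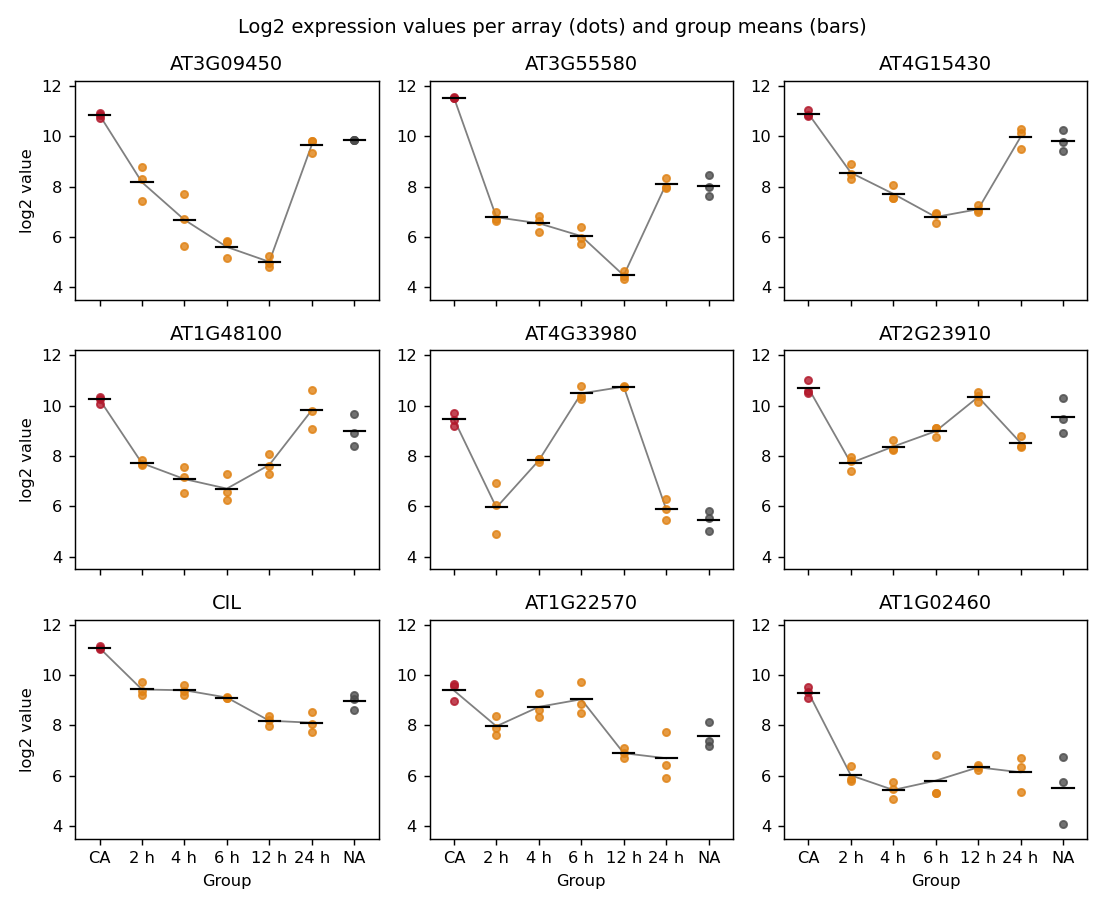
Log2 expression values of 9 fast-falling genes on each array (dots) with the group means (black bars), in cold acclimated (CA) plants, after 2 to 24 h of deacclimation and in NA plants. AT3G09450, AT3G55580, AT4G15430 and AT1G48100 are lowest at 6 h or 12 h and higher at 24 h, AT4G33980 and AT2G23910 peak again at 12 h, CIL and AT1G22570 are lower at 12 h and 24 h than at 4 h, and AT1G02460 stays low.

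AT2G42150, a DNA-binding protein with a bromodomain (a fold that recognises acetylated histones), belonged to the same kind. It had 7.97, 8.52 and 8.44 in CA plants, 6.82, 6.15 and 7.45 after 2 h, 5.91, 5.64 and 6.59 after 4 h, 5.96, 5.78 and 5.73 after 6 h, 5.25, 5.44 and 6.10 after 12 h, 7.15, 7.05 and 7.41 after 24 h, and 7.34, 7.43 and 6.76 in NA plants. The 24 h arrays lay above all those of 4 h to 12 h and among those of NA plants. Its 24 h level exceeded that of 12 h by 1.60 (SE 0.31, 3 arrays per group, adjusted p = 0.00285, limma). The difference of 1.16 from 4 h (adjusted p = 0.0147) lost its call without 24 h replicate 3 or 4 h replicate 1 or 2.

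AT4G25433 was higher at 24 h, with 6.91, 7.35 and 7.17, than at 12 h, with 6.00, 5.50 and 4.87, or at 4 h, with 6.23, 5.47 and 5.59. The differences were 1.68 (SE 0.40, 3 arrays per group, adjusted p = 0.0132, limma) and 1.38 (adjusted p = 0.0231). The first lost its call without 24 h replicate 2 or 12 h replicate 3, and the second without 24 h replicate 2 or 3 or 4 h replicate 2 or 3.

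Another 5 genes were called higher at 24 h with differences under 1.5, and they are named because every called gene is given. AT5G17040 was 1.47 above 4 h (SE 0.35, adjusted p = 0.00838, limma), a call lost only when the arrays of those times alone were fitted. AT5G44565 was 1.1 above 4 h (adjusted p = 0.00828), without a call when replicate 2 of either time was left out. Above 12 h by 1.47 was AT5G15853 (adjusted p = 0.0425), with no call without 24 h replicate 2 or 3 or 12 h replicate 1 or 2. AT1G52855 was above 12 h by 1.08 (adjusted p = 0.036), with no call without 24 h replicate 2 or 3 or 12 h replicate 1 or 3. AT1G03940 was above 12 h by 1.05 (adjusted p = 0.0103), with no call without 24 h replicate 1 or 12 h replicate 2 or 3. The last 3 also lost the call when the arrays of those times alone were fitted. None of these 5 was called in the opposite direction in another comparison.

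A second course was a return after the fall at 2 h. AT4G33980 rose again and then fell a second time. After the values at 2 h given above, it stood at 7.89, 7.75 and 7.87 after 4 h, 10.80, 10.28 and 10.38 after 6 h, 10.74, 10.75 and 10.77 after 12 h, and 6.30, 5.89 and 5.48 after 24 h. The arrays of 6 h and 12 h all lay above those of CA plants, and those of 24 h partly overlapped NA plants. The level at 12 h was 2.92 above that at 4 h (SE 0.36, 3 arrays per group, adjusted p = 0.000246, limma), and between 12 h and 24 h it fell by 4.86 (adjusted p = 1.25e-07). All 3 calls of the gene, with 24 h lower than 4 h by a log2 difference of -1.94 (adjusted p = 0.00123), held under every alternative that kept its probe set in the fit.

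AT2G23910, related to cinnamoyl-CoA reductases of lignin synthesis, followed a similar course at a smaller size. It stood at 10.51, 10.59 and 11.01 in CA plants, 7.79, 7.97 and 7.41 after 2 h, 8.23, 8.28 and 8.63 after 4 h, 9.10, 9.11 and 8.77 after 6 h, 10.53, 10.14 and 10.39 after 12 h, 8.81, 8.39 and 8.38 after 24 h, and 10.31, 9.48 and 8.93 in NA plants. The 12 h arrays reached the lower edge of CA plants, and all 24 h arrays lay below all NA arrays. The 12 h level was 1.97 above that of 4 h (SE 0.26, 3 arrays per group, adjusted p = 0.00047, limma), and by 24 h it fell by 1.82 (adjusted p = 0.00023).

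CLE21 (AT5G64800), a gene for a small signal peptide of the CLE family, was measured at 6.11, 6.13 and 6.06 in CA plants, 5.69, 5.01 and 4.66 after 2 h, 5.69, 5.22 and 5.81 after 4 h, 6.52, 5.94 and 5.59 after 6 h, 6.17, 7.20 and 7.20 after 12 h, 5.46, 5.17 and 5.36 after 24 h, and 5.80, 4.91 and 4.09 in NA plants. All 12 h arrays lay above all CA arrays. Between 12 h and 24 h it fell by 1.53 (SE 0.37, 3 arrays per group, adjusted p = 0.0169, limma), a call lost without 24 h replicate 2 or 12 h replicate 2 or 3.

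PDC2 (AT5G54960), a pyruvate decarboxylase of ethanol fermentation, stood at 9.96, 9.94 and 10.19 in CA plants, 8.87, 8.25 and 8.94 after 2 h, 9.66, 9.48 and 9.91 after 4 h, 10.33, 9.71 and 9.78 after 6 h, 10.02, 10.26 and 10.33 after 12 h, 9.22, 9.43 and 9.40 after 24 h, and 8.71, 8.31 and 8.59 in NA plants. From 4 h on every array lay above all NA arrays, and those of 6 h and 12 h overlapped CA plants. No comparison of this gene passed both thresholds. The gene was chosen after its values were seen, as one of 4 whose mean exceeded that of CA plants at some time after 2 h, with AT4G33980, CLE21 and AT2G15830.

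AT2G15830 (difference between 24 h and 12 h -1.02, adjusted p = 0.0467, limma) and AT4G15990 (-1.64, adjusted p = 0.0497) also passed as lower at 24 h than at 12 h. The first lost its call without any single array of 24 h or without 12 h replicate 2 or 3, and the second without 24 h replicate 2 or 3 or any single array of 12 h. AT4G15990 was also lower at 24 h than at 4 h (-1.49, adjusted p = 0.0452, limma), a call lost without 24 h replicate 2 or 3 or 4 h replicate 1 or 2. Over the whole table, with the probe sets set apart included, AT2G15830, AT4G15990, AT5G15853 and AT1G52855 lost every call. Counting all genes, 17 had a ratio under 0.5 at some time from 4 h to 24 h, so that their mean was nearer to CA than to NA plants. At the single times these were 6 after 4 h, 14 after 6 h, 8 after 12 h and 3 after 24 h.

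In other genes the levels were lower at 12 h and 24 h than at 4 h. CIL (AT4G25990) was measured at 11.02, 11.15 and 11.07 in CA plants, 9.20, 9.72 and 9.36 after 2 h, 9.60, 9.37 and 9.23 after 4 h, 9.10, 9.11 and 9.12 after 6 h, 8.37, 8.21 and 7.98 after 12 h, 8.55, 7.74 and 8.05 after 24 h, and 8.61, 9.05 and 9.21 in NA plants. The arrays of 12 h and 24 h all lay below those of NA plants. CIL was lower at 12 h than at 4 h by a log2 difference of -1.21 (SE 0.19, 3 arrays per group, adjusted p = 0.00173, limma) and at 24 h by -1.28 (adjusted p = 0.000223), and both calls held under every alternative tried.

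AT1G22570, of the proton-dependent oligopeptide transporter family, stood at 8.97, 9.64 and 9.56 in CA plants, 7.62, 7.90 and 8.38 after 2 h, 8.62, 9.29 and 8.32 after 4 h, 8.86, 8.51 and 9.74 after 6 h, 6.90, 6.69 and 7.12 after 12 h, 6.44, 7.75 and 5.91 after 24 h, and 7.20, 7.40 and 8.12 in NA plants. Its mean first rose from 7.97 after 2 h to 8.74 after 4 h and 9.04 after 6 h. At 4 h and 6 h it overlapped CA plants, and at 12 h all arrays lay below NA plants. It was lower at 24 h than at 4 h by -2.04 (SE 0.41, 3 arrays per group, adjusted p = 0.00264, limma), a call lost when only those arrays were fitted. At 12 h it was lower by -1.84 (adjusted p = 0.016), which was lost without replicate 2 of either time.

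Other members, by role, had no call over the whole table, and with so few genes in each group this is an account of them and no result about the group. The genes given a role in anthocyanin and glycosyl transfer numbered 4, while genes known by locus alone were not sorted by function. AT5MAT (AT3G29590), which adds a malonyl group to anthocyanins, had means of 8.16 in CA plants, 6.33 after 2 h, 6.22 after 4 h, 5.39 after 6 h, 6.02 after 12 h, 6.48 after 24 h and 6.26 in NA plants, and all of its arrays from 2 h on lay below all CA arrays. UF3GT had means of 5.06, 5.10, 4.43, 4.64 and 5.54 from 2 h to 24 h. Of the UDP-glycosyltransferases, AT2G16890 had 7.49, 7.69, 7.48, 7.74 and 8.35 and AT2G36970 had 7.79, 6.90, 6.48, 6.70 and 7.66 at these times, with 8.21 and 7.61 in NA plants. Both were called higher at 24 h than at 4 h when replicate 3 of 4 h was left out.

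The genes given a role as RNA and ribosome factors numbered 5, and genes known by locus alone may include more. RRP41L (AT4G27490), related to the RRP41 subunit of the RNA exosome, stood at 10.54, 10.52 and 10.41 in CA plants, 9.59, 9.60 and 9.32 after 2 h, 9.26, 9.19 and 9.08 after 4 h, 9.05, 8.81 and 8.68 after 6 h, 8.68, 8.68 and 8.44 after 12 h, 9.15, 8.85 and 8.48 after 24 h, and 9.35, 9.48 and 9.41 in NA plants. All of its arrays from 4 h on lay below all NA arrays. The WD-40 repeat gene AT2G18900 had means of 9.71 after 2 h, 9.50 after 4 h, 9.26 after 6 h, 8.90 after 12 h and 9.16 after 24 h, with 9.65 in NA plants. The pentatricopeptide repeat gene AT1G52640 (a family that binds RNA in organelles) had 5.97, 6.31, 6.46, 6.20 and 5.61, and AT1G31840 of the same family had 5.63, 5.88, 6.33, 5.69 and 5.71. The mTERF gene AT1G62085, of a family that acts on organelle transcription, had 7.27, 7.20, 7.40, 7.30 and 6.97.

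Of the 9 genes given a role as regulators or in signalling, 6 had no call. RBL (REBELOTE, AT3G55510), known from the termination of flower meristems, had 11.24, 11.37 and 11.40 in CA plants, 10.57, 10.21 and 10.37 after 2 h, 9.92, 9.86 and 10.14 after 4 h, 9.90, 9.66 and 9.77 after 6 h, 9.17, 9.29 and 9.15 after 12 h, 9.83, 9.39 and 9.51 after 24 h, and 10.16, 9.97 and 10.17 in NA plants. At 2 h its arrays lay above all NA arrays and at 6 h, 12 h and 24 h below all of them. RECQSIM (AT5G27680), a RECQ helicase, had means of 7.30 after 2 h, 7.16 after 4 h, 7.02 after 6 h, 6.79 after 12 h and 6.91 after 24 h, with 7.49 in NA plants. PTL (PETAL LOSS, AT5G03680), a trihelix transcription factor, had means between 5.62 and 5.84 from 2 h to 24 h. AT2G44940, an AP2-domain factor similar to TINY, had means between 8.12 and 8.76, and the transcription factor gene AT1G19040 between 4.63 and 5.02. The protein kinase gene WNK9 (AT5G28080) had 3.59, 4.26, 4.71, 4.04 and 3.83 from 2 h to 24 h.

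In the other groups, EXPA9 (AT5G02260), an expansin that loosens cell walls, had means of 9.44 in CA plants, 8.55 after 2 h, 8.52 after 4 h, 8.70 after 6 h, 8.06 after 12 h, 8.07 after 24 h and 8.40 in NA plants. SWEET13 had means of 8.34, 8.35, 7.39, 7.36 and 8.61 from 2 h to 24 h, and its difference between 24 h and 12 h was 1.25 (SE 0.45, adjusted p = 0.115, limma), with a call when replicate numbers were fitted as a block and when only the arrays of those times were fitted. The AMP-binding protein gene AT1G21540 had means between 5.63 and 6.29, and the serine carboxypeptidase gene AT2G22960 between 3.72 and 3.86, at the low end of the scale. Of the 74 genes known by locus alone, 62 were called in no comparison.

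Lists of genes with related functions, matched by platform symbol or RefSeq symbol and synonym, were set beside the 101. They miss members named above, such as AT1G02460 and AT1G48100 (cell wall), AT2G44940 (AP2 domain), AT1G52640, AT1G31840 and AT1G62085 (organelle RNA), PTL and WNK9. The counts are therefore of matched names and not of functions among the 101. Of 31 measured transporters 3 were cold-induced and 1 was fast-falling (SWEET13), and over the 31 genes 1 was higher and 0 lower at 12 h than at 4 h, 2 higher and 0 lower at 24 h than at 12 h. Of 44 pectin and cell wall genes 2 were cold-induced and 1 fast-falling (EXPA9), with 1 higher and 1 lower at 24 h than at 12 h. Of 3 ribosome assembly genes 1 was both (RRP41L), and 0 of the 3 were called. Of 13 genes of cold, dehydration and abscisic acid responses, 2 were cold-induced and 0 fast-falling, with 1 higher and 3 lower at 12 h than at 4 h and 0 higher and 1 lower at 24 h than at 12 h. In every list, genes whose symbols start with a left-out family name, such as COR, could not count as cold-induced or fast-falling. The counts for these 13 genes are thus no measure of how they responded, and their median CA minus NA difference was 1.25. The lists of AP2/ERF regulators (4 measured), clock and photoperiod (1), organelle RNA factors (13), the ubiquitin system (53), chaperones (10), RNA helicases (4), calcium sensors (8), lipid metabolism (3) and other transcription factors (102) held 0 of the 101 genes by symbol, and 0 protein kinases of that list were measured.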

How the data were processed

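Transcript levels were measured in rosettes on 21 Affymetrix whole-transcript arrays (7 groups of 3 biological replicates). The deposited log2 values per probe set were computed by the authors in RobiNA with the RMA method (background correction, then quantile normalization, then a summary per probe set), and no source used here gives its version. They were used as deposited. Quantile normalization gives all arrays nearly the same distribution, so a change shared by most transcripts would not be seen. Arrays give no read depth, and their number limits the precision.

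From the 38408 probe sets of the table, 7079 at its head, numbered in steps of 2 and with no gene in the platform table, were set apart, leaving 31329. The platform table lists 16722 with 1 gene, 759 with several and none for the rest. All 101 genes matched RefSeq (TAIR10.1), which was used for names and gene order only. Roles came from platform symbols, RefSeq synonyms and annotations in the paper's supplement. Exclusion worked on the platform symbol, so genes of the left-out families that are listed under another symbol or a locus number could stay in. Among them are UF3GT (UGT79B1 in RefSeq), AT2G16890 and AT2G36970. Whether other members, with a role or known by locus alone, belong to a left-out family was not checked.

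One model with a mean per group was fitted to the 21 arrays with lmFit and eBayes of limma 3.58.1 (R 4.3.3), with 14 residual and 2.69 prior degrees of freedom. Replicate numbers come from the labels. Deviations of same-numbered arrays from their group means correlated at 0.22, 0.13 and 0.16 between 12 h and 4 h, so the fit with the number as a block stands beside that comparison. In the other comparisons 1 or more correlations stayed under 0.1. Tried on simulated data standing for 12 h minus 4 h, the fit recovered 86 of 100 changes of 1.5 and 99 of 100 of 3, with 0 of the unchanged of 31329 probe sets called. Alternatives were the whole table, single-gene probe sets, cyclic loess, a trended robust variance, bright probe sets only, only the groups compared, the block, and each array left out.

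The 101 genes and the lists were chosen with earlier results of these data known. Named by rule are the 12 largest increases in the cold, the 4 largest rises and falls of each tested comparison, up to 4 genes per list and 3 on each side of the ratio limit. Other genes, including every further called gene and the genes with roles, were chosen after their values were seen. Figures were drawn with matplotlib 3.10.9.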

Additional observations from a re-analysis of the deposited data

How the results depend on the processing

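No result changed direction in any alternative. With bright probe sets only (a mean above 8.19, the median), 31 of the 101 genes stayed in the fit, and the numbers higher and lower were 1 and 1 between 12 h and 4 h, 3 and 1 between 24 h and 12 h, and 2 and 1 between 24 h and 4 h. With the replicate number as a block, 4 genes were higher and 4 lower at 12 h than at 4 h, 11 and 5 at 24 h than at 12 h, and 8 and 4 at 24 h than at 4 h, and every call of the fit without the block was shared. Between 24 h and 12 h, 3 were lower over the whole table and 3 with only the arrays of those times, and between 24 h and 4 h, 2 were lower in such a fit. The cause was not tested. With single arrays left out, the number lower between 12 h and 4 h ran from 2 to 4, that between 24 h and 12 h from 2 to 5, and between 24 h and 4 h from 5 to 9 were higher and from 3 to 7 lower. A ratio of at least 0.9 in place of 0.75 gave 62 genes and one of at least 0.6 gave 187. Cyclic loess gave 105 genes, 79 of them shared, and dropping the demand for no overlap gave 110. Leaving out single arrays gave 94 to 146. For the 32 single calls, 147 values with an array left out kept the call and 45 lost it, and under the other alternatives 185 kept and 16 lost it. Genes near the thresholds rest on 3 arrays per group, and 70 of the 101 have a mean level at or below the median of all probe sets.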

Other observations

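Probe sets without a single gene in the platform table also met the numerical demands of the selection. Outside the block at the head of the table these were 107 of 14607 (0.733%), close to the 105 of 16722 (0.628%) with 1 gene. Within the block they were 465 of 7079 (6.57%). In the block 15.0% of probe sets were higher by 1 or more in CA than in NA plants without overlap and 1.31% were lower in CA plants, against 3.56% and 4.68% of the single-gene probe sets. The mirror image of the selection (lower in the cold, and at least 75% of the way back at 2 h) was met by 40 probe sets of the block (0.565%) and by 208 of those with 1 gene (1.24%). The median level was 5.91 in the block and 7.52 in the single-gene probe sets, and the median SD within groups was 0.561 and 0.233. No source used here says what the block measures.

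Some of the 101 genes are near each other in the RefSeq order of protein-coding genes. With at most 9 genes between them there were 6 pairs: AT5G64780 and CLE21 (1 gene between), AT1G18850 and AT1G18871 (2), AT5G28850 and AT5G28919 (3), AT5G16980 and AT5G17040 (5), AT3G21470 and AT3G21540 (7), and RBL and AT3G55580 (9). The number of such pairs in other sets of 101 genes was not counted, so 6 is no measure of clustering. Whether the genes of a pair change together was not tested. RBL had its lowest mean, 9.21, at 12 h and 9.58 after 24 h, and AT3G55580 had 4.48 after 12 h and 8.11 after 24 h. AT5G64780 had means of 6.22 after 2 h, 6.86 after 4 h, 7.16 after 6 h, 7.45 after 12 h and 7.03 after 24 h, and CLE21 had 5.12, 5.57, 6.02, 6.86 and 5.33. By chromosome, 1 to 5, the 101 genes numbered 23, 10, 22, 17 and 29, which is 22.8, 9.9, 21.8, 16.8 and 28.7%, where all single-gene probe sets gave 25.9, 15.5, 20.4, 14.9 and 23.0%.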
